A study of Mus musculus with 19 samples.

Results

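The libraries described here are the 11 of the poly(PR) cohort, out of 19 in the series, divided by the share of their gene reads that came from the mitochondrial genome. A library counted as high when at least 4.5% of its reads assigned to genes lay on genes whose symbol starts with mt-, and as low otherwise, which gave 5 high and 6 low libraries. The members were thus selected on measured read counts, and the share and the mt- genes are given as a description. The high side held 3 libraries of PR50 mice and 2 of PR-control mice, and the low side held 4 of PR50 mice and 2 of PR-control mice. The high side came from 4 females and 1 male, and the low side from 3 females and 3 males.

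All mice were labelled C57BL/6 and were 3 months old, and RNA came from a homogenate of hippocampus and cortex. As newborns they had received an adeno-associated virus, AAV1, in both lateral ventricles of the brain. In PR50 mice the vector was AAV1-GFP-(PR)50, which encodes green fluorescent protein joined to a proline-arginine dipeptide repeat, and in PR-control mice it was AAV1-GFP alone. Virus and fluorescent protein were therefore common to both groups, the promoter of the vector is not given in the sources used here, and the transgene acts in the cells that the virus reached. Poly(PR) is one of the dipeptide repeat proteins made from the expanded C9orf72 repeat, a common inherited cause of frontotemporal dementia and motor neuron disease. The labels do not say outright that each library is a separate mouse, so p-values measure the spread between these libraries, part of which may be technical.

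The mitochondrial genome encodes a few core subunits of respiratory complexes I, III, IV and V, together with the mitochondrial ribosomal RNAs and transfer RNAs. All other subunits of these complexes, and all proteins of the mitochondrial ribosome, are made from nuclear genes and imported. The mitochondrial genome is transcribed as long RNAs from both strands, which are then cut into the single transcripts, mostly at the transfer RNAs. Mitochondrial transcripts are abundant in brain tissue, where they are found in neuronal cell bodies, axons, synapses and glia.

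The split was made from the reads of these same libraries, and nothing was assigned to a side by the study. Its sides are therefore not groups of the study, and a call below says that a gene's level moved with the mitochondrial share across these libraries beyond their spread. In homogenate, fewer cells of a type and less RNA per cell cannot be told apart.

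The mitochondrial share was 4.98%, 5.38% and 6.34% in high PR50 libraries 1, 4 and 5 and 4.76% and 5.66% in high PR-control libraries 1 and 4. It was 4.15%, 3.90%, 3.72% and 4.11% in low PR50 libraries 2, 3, 6 and 7 and 3.76% and 3.75% in low PR-control libraries 2 and 3. The library just inside the threshold, at 4.76%, and the one just outside it, at 4.15%, were a PR-control and a PR50 library. The shares overlapped between the treatments: they averaged 4.65 ± 0.955% in PR50 libraries (SD, n = 7) and 4.48 ± 0.918% in PR-control libraries (SD, n = 4). Reads assigned to genes numbered 26934239 to 40770203 in the high libraries, with a median of 28420545, and 30200168 to 39419728 in the low libraries, with a median of 32810584. Other than PR50 library 5, each high library had fewer reads than every low library.

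**Figure D1:**
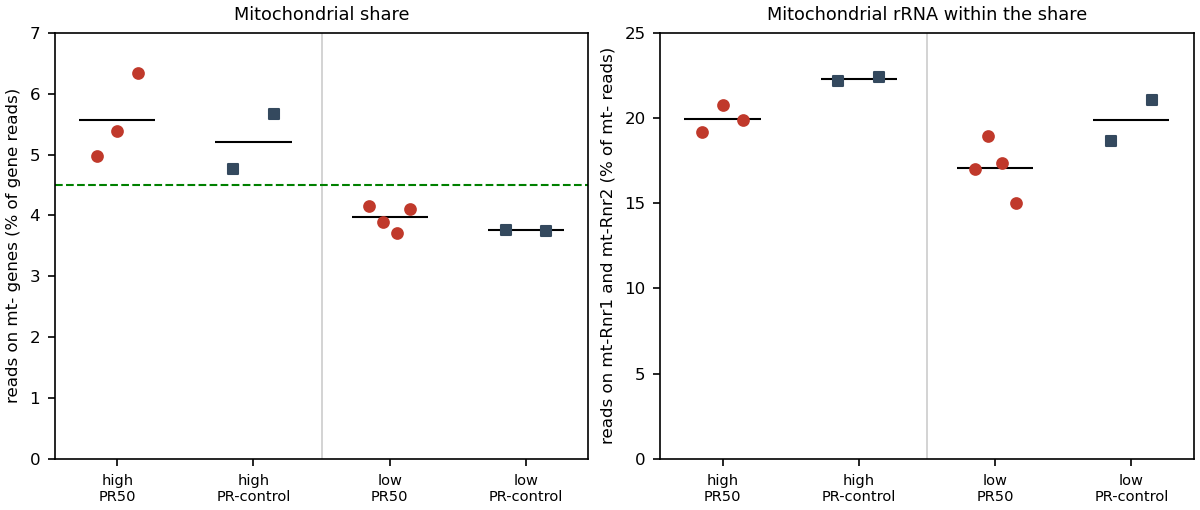
Left, reads on mt- genes as a percent of gene reads in each library, with the 4.5% threshold dashed; right, reads on the mitochondrial ribosomal RNA genes as a percent of reads on mt- genes. Each point is 1 library, circles are PR50, squares are PR-control and bars are means; the high libraries lie between 4.76% and 6.34% and the low ones between 3.72% and 4.15%, with PR50 and PR-control on both sides.

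Defining markers of the labelled tissue were present on both sides. Markers of hippocampal CA neurons summed to 1321 to 1602 CPM (counts-per-million of gene reads after TMM scaling, mitochondrial genes left out) in the high libraries and 1363 to 1545 CPM in the low ones. Markers of upper cortical layers summed to 722 to 805 CPM in the high libraries and 770 to 893 CPM in the low ones. Markers of striatum, a region the labels do not name, summed to 1557 to 2103 CPM in the high libraries and 1590 to 2683 CPM in the low ones.

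The mitochondrial genes that define the split are described first, without a test, because the rule used them. The tables hold 37 mt- genes, of which 18 had at least 1 read in this cohort. The largest of them was mt-Co1, the catalytic subunit of complex IV, with 33.3% of all mitochondrial reads. Its level was 17766 ± 1875 CPM of all gene reads in the high libraries (SD, n = 5) and 13226 ± 833 CPM in the low libraries (SD, n = 6), a ratio of 1.34. Cytochrome b of complex III, mt-Cytb, had a ratio of 1.35, and the complex I subunits mt-Nd1, mt-Nd2, mt-Nd4, mt-Nd5 and mt-Nd6 had ratios of 1.28, 1.39, 1.36, 1.36 and 1.28.

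The ribosomal RNAs of the mitochondrion had larger ratios than these messenger RNAs. The small subunit RNA mt-Rnr1 averaged 4480 ± 573 CPM in the high libraries and 2637 ± 281 in the low ones, a ratio of 1.70. The large subunit RNA mt-Rnr2 averaged 6838 ± 787 in the high libraries and 4356 ± 353 in the low ones, a ratio of 1.57. Together they made up 20.9 ± 1.41% of mitochondrial reads in the high libraries, between 19.2% and 22.4%, and 18 ± 2.05% in the low ones, between 15.02% and 21.1%. The sides overlapped in this composition. By treatment it averaged 18.3 ± 1.96% in PR50 libraries and 21.1 ± 1.73% in PR-control libraries (SD, n = 7 and 4), and the treatments overlapped as well.

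Several mitochondrial messenger RNAs are nearly missing from the counts. The genes mt-Co2, mt-Atp6 and mt-Co3 averaged 8.17, 6.97 and 9.26 CPM in the high libraries and 6.38, 4.99 and 7.21 in the low ones, and mt-Atp8, mt-Nd3 and mt-Nd4l were lower still. These genes lie in a stretch of the mitochondrial genome that has a copy on chromosome 1 of the nuclear genome, annotated in GRCm38 as 7 pseudogenes between positions 24611535 and 24616197. All but 1 of the 7 match their mitochondrial gene at every aligned base, and Gm29216 matches mt-Co1 at 99.79%. The following stretches of GRCm38 show how alike the copies are: over these 60 bases mt-Co1 and its copy differ in 1, printed in capitals, and the start of mt-Co3 has the same 60 letters in its copy Gm28437.
mt-Co1, chrM:6390-6449, plus strand: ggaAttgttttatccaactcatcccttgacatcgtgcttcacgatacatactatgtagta
Gm29216, chr1:24616129-24616188, minus strand: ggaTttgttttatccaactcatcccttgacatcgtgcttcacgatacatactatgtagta
mt-Co3, chrM:8607-8666, plus strand: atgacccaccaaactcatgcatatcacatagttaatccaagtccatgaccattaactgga
Reads placed at several sites are counted apart from gene reads in the tables and so stay out of the share that defines the split. Such reads made up 5.48% to 6.74% of all reads in the high libraries and 4.79% to 5.48% in the low ones, and as this class can hold mitochondrial reads it was not tested.

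Among nuclear genes, 7736 of 20240 tested differed between the high and the low libraries, which is 38.2% (edgeR quasi-likelihood test with treatment and sex in the model, Benjamini-Hochberg adjusted p under 0.05). Of these, 3405 were higher in the high libraries, 16.8% of the genes tested, and 4331 were lower, 21.4%. The changes were mostly small: 1974 genes passed a test for a change beyond 1.2-fold, 684 of them higher and 1290 lower. For 2236 genes, 11% of those tested, the high and the low libraries did not overlap at all, with 4.53% of genes higher and 6.52% lower. The median log2 fold change over all genes was 0.00, so that gene lists can be read against 0. A second fit adjusted each library for GC content and exonic length and called 6713 genes, 3233 higher and 3480 lower. Its values are given beside a list or gene where they end a call or differ much, as values adjusted for GC and length.

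Nuclear genes of the respiratory chain rose with the mitochondrial share. Of the nuclear subunits of complex I, 26 of 36 were higher and 2 lower, with a median log2 fold change of 0.28. For complex IV 10 of 11 were higher and none lower, with a median of 0.33, for complex III 8 of 9 were higher and 1 lower, with a median of 0.25, and for the ATP synthase 9 of 15 were higher and 1 lower, also with a median of 0.25. In the adjusted fit, complex IV had 7 of 11 higher and a median of 0.19. Complex II, which has no mitochondrially encoded subunit, had 2 of 4 genes higher, Sdhc and Sdhb, and 1 lower, Sdha. Adjusted for GC and length, Sdhb and Sdha were no longer called, at 0.03 and −0.07, and Sdhb also lost its call without any of 4 libraries. The summed level of the complex IV genes was 2732, 3176 and 3446 CPM in the high PR50 libraries and 2816 and 3214 CPM in the high PR-control libraries. On the low side it was 2416, 2850, 2252 and 2237 CPM for PR50 and 2266 and 2230 CPM for PR-control. Only PR50 library 3 among the low libraries reached the range of the high ones.

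Several small accessory subunits led these lists. Cox6c of complex IV averaged 340 ± 41.5 CPM in the high libraries and 236 ± 25.6 CPM in the low ones (SD, n = 5 and 6), a log2 fold change of 0.47 with a standard error of 0.08 (adjusted p = 0.00034). Ndufa1 and Ndufb7 of complex I had log2 fold changes of 0.52 and 0.55, Uqcr11 of complex III 0.56, and Atp5k and Atp5e of the ATP synthase 0.51 and 0.50. With GC and length adjusted for, Uqcr11, Atp5k and Cox4i1 stood at 0.20, 0.22 and 0.19 and were still called. Cox4i1, a core nuclear subunit of complex IV, had 479, 571 and 579 CPM in the high PR50 libraries and 454 and 547 CPM in the high PR-control libraries. In the low libraries it had 402, 477, 365 and 360 CPM for PR50 and 371 and 346 CPM for PR-control, and its log2 fold change was 0.42 ± 0.08 (SE, adjusted p = 0.00093). The sides overlapped for Cox4i1 through low PR50 library 3. The complex III core protein Uqcrc2 was lower at −0.38 ± 0.06 (adjusted p = 0.00021), and the ATP synthase beta subunit Atp5b averaged 1348 ± 44.9 CPM in the high libraries and 1319 ± 62.8 CPM in the low ones, with an adjusted p of 0.81.

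The mitochondrial ribosome and the import machinery had more members higher than lower. Of 75 tested proteins of the mitochondrial ribosome 37 were higher and 5 lower, with a median of 0.17, and Mrpl28 and Mrps6 had log2 fold changes of 0.45 and 0.42. In the adjusted fit, 27 were higher and 4 lower, the median was 0.08, and Mrpl28 stood at 0.15. In the protein import machinery 11 of 19 were higher and 2 lower, with a median of 0.20, but 5 were higher and 3 lower, with a median of 0.11, when adjusted for GC and length. The 2 lower ones of the unadjusted fit were receptors of the outer membrane. Tomm70a, which receives carrier proteins, averaged 168 ± 9.51 CPM in the high libraries and 257 ± 21.7 CPM in the low ones, with a log2 fold change of −0.61 ± 0.05 (adjusted p = 3.3e-05), and Tomm20 fell by 0.44 on the log2 scale. The small import chaperone Timm13 and the small translocase subunit Tomm7 rose, by 0.55 and 0.43. Adjusted for GC and length, Tomm70a, Tomm20 and Timm13 stood at −0.33, −0.28 and 0.25.

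Genes that transcribe and copy the mitochondrial genome showed no common direction. Of 21 tested, 4 were higher and 4 lower, with a median of 0.04. Polrmt, the mitochondrial RNA polymerase, averaged 34.1 ± 2.34 CPM in the high libraries and 31.5 ± 1.93 CPM in the low ones, with an adjusted p of 0.11. Tfam, which packs mitochondrial DNA and starts its transcription, averaged 37.3 ± 1.81 CPM in the high libraries and 41.9 ± 2.59 CPM in the low ones. Its log2 fold change of −0.15 ± 0.06 just passed the test (adjusted p = 0.049), lost it without any of 9 of the 11 libraries and turned to 0.03 when GC content and length were adjusted for. Lrpprc, which stabilizes mitochondrial messenger RNAs, was at −0.24 ± 0.06 (adjusted p = 0.0046), but adjusted for GC and length it was at −0.05 and not called (adjusted p = 0.39). Ppargc1a, the coactivator PGC-1 alpha of mitochondrial biogenesis, had 41.3, 37.2 and 35.3 CPM in the high PR50 libraries and 39.1 and 37.8 CPM in the high PR-control libraries. Among low libraries it had 48.6, 41.6, 54.0 and 53.8 CPM for PR50 and 64.3 and 64.1 CPM for PR-control. Every high library was below every low library, and the log2 fold change was −0.48 ± 0.08 (adjusted p = 0.0004). Its partners Esrra and Nrf1, transcription factors of nuclear mitochondrial genes, were higher at 0.33 and 0.36. With GC and length adjusted for, Ppargc1a stood at −0.29 and Esrra at 0.18.

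Calls among genes of energy metabolism outside the respiratory chain went both ways, and their balance depended on the fit. Of 16 genes of the citric acid cycle 3 were higher and 6 lower: Idh2 rose by 0.38, while Pdha1 of the pyruvate dehydrogenase complex and Sucla2 fell by 0.49 and 0.23 on the log2 scale. In the adjusted fit, 4 were higher and 3 lower, Idh2 stood at 0.20 and Sucla2, at −0.05, was not called. For glycolysis, 17 gene IDs of 16 listed symbols were tested. Of these IDs 2 were higher and 2 lower, but 2 were higher and 8 lower, with a median of −0.10, when adjusted for GC and length. Among 17 genes of mitochondrial shape and turnover 7 were higher and 6 lower. Opa1, which fuses inner membranes, fell by 0.52, and Fis1, an outer membrane adaptor of fission, rose by 0.42. Adjusted for GC and length, they stood at −0.30 and 0.24.

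Cytosolic ribosomal protein genes had the largest share of members called higher of the lists with over 4 genes tested. Of 78 ribosomal protein genes 73 were higher in the high libraries and none lower, all 78 had a positive log2 fold change, and the median was 0.45. Their summed level was 20421, 22967 and 25308 CPM in the high PR50 libraries and 18978 and 22383 CPM in the high PR-control libraries. On the low side it was 16573, 19778, 15278 and 15353 CPM for PR50 and 14486 and 14359 CPM for PR-control. Low PR50 library 3 again reached the high range, and all other low libraries lay below it. The median was 0.44 in PR50 libraries alone and 0.55 in PR-control libraries alone. Here and below, the fit to PR-control libraries alone held no sex term, and the only male among them, PR-control library 2, was on the low side. Rps21 averaged 337.5 ± 57.1 CPM in the high libraries and 208 ± 27.98 CPM in the low ones, a log2 fold change of 0.64 ± 0.09 (adjusted p = 0.00016), and Rpl37a rose by 0.62. Genes that host small nucleolar RNAs, which guide the modification of ribosomal RNA, had 10 of 12 higher, none lower and a median of 0.44. Gas5 and Snhg8 among them rose by 0.48 and 0.61.

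**Figure D2:**
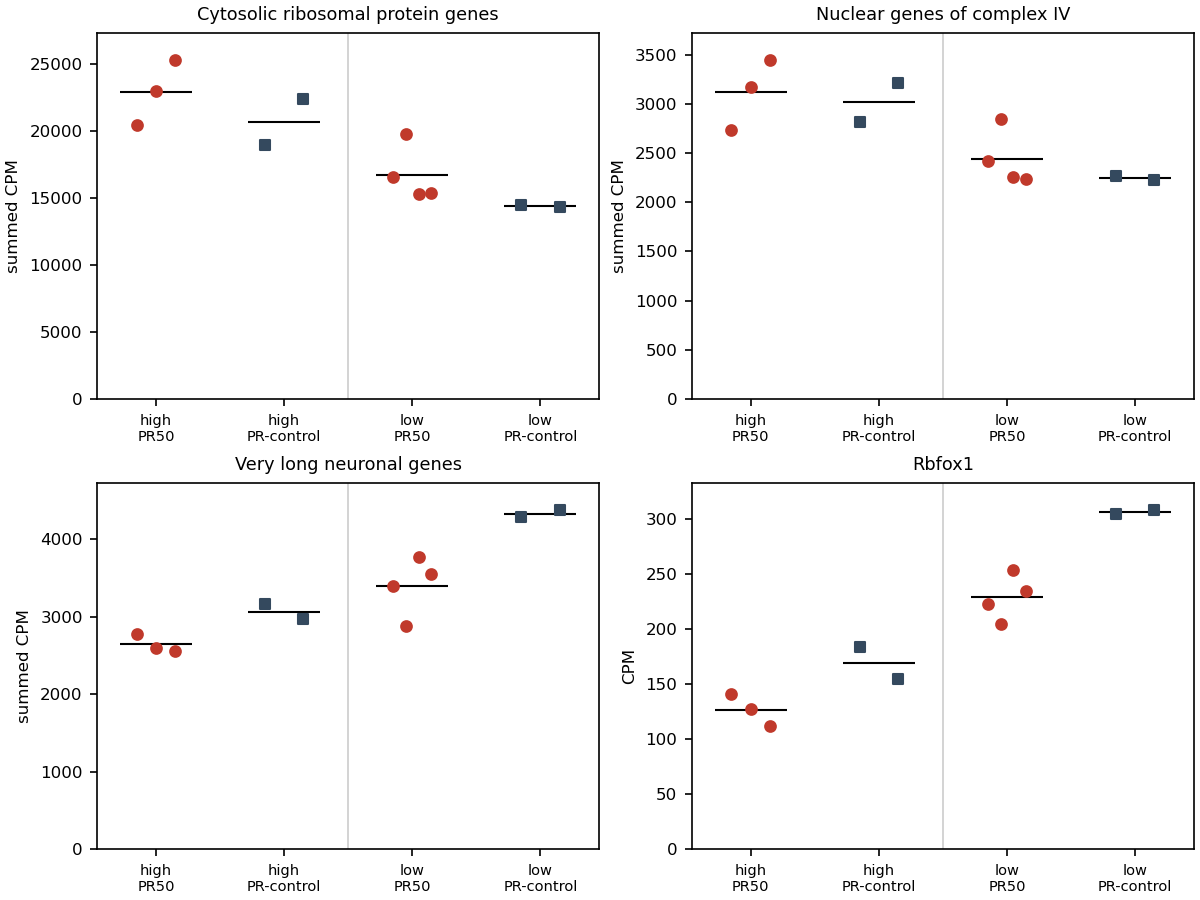
Summed level of cytosolic ribosomal protein genes, of nuclear complex IV genes and of very long neuronal genes, and the level of Rbfox1, in each library in CPM; circles are PR50, squares are PR-control and bars are means of the 4 sets. Ribosomal protein genes reach 18978 to 25308 CPM in the high libraries and 14359 to 19778 CPM in the low ones, while Rbfox1 runs the other way without overlap.

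Very long neuronal genes fell as the mitochondrial share rose. These genes, which span large stretches of the genome and encode adhesion, channel and RNA-binding proteins of neurons, had 27 of 33 lower in the high libraries and none higher, with a median of −0.39. Their summed level was 2774, 2600 and 2561 CPM in the high PR50 libraries and 3163 and 2969 CPM in the high PR-control libraries. In the low libraries it was 3400, 2888, 3779 and 3548 CPM for PR50 and 4288 and 4383 CPM for PR-control. Within each treatment every high library was below every low library, and the median was −0.34 in PR50 libraries alone and −0.46 in PR-control libraries alone.

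Rbfox1, a neuronal splicing regulator, gave the clearest example. It had 141, 127 and 112 CPM in the high PR50 libraries and 184 and 155 CPM in the high PR-control libraries, against 222, 204, 254 and 234.5 CPM in the low PR50 libraries and 304 and 308 CPM in the low PR-control libraries. The sides did not overlap, and the log2 fold change was −0.84 ± 0.07 (adjusted p = 3.3e-05). Erbb4, a neuregulin receptor, fell by 0.91, and Pcdh9 and Ctnna2, both of cell adhesion, fell by 0.75 and 0.34. With GC and length adjusted for, Erbb4 and Ctnna2 stood at −0.59 and −0.21. Of 24 genes of the synaptic vesicle and its release 14 were lower and none higher, with a median of −0.18. Syt1, the calcium sensor of vesicle release, averaged 1020.1 ± 110.3 CPM in the high libraries and 1416 ± 215 CPM in the low ones, a log2 fold change of −0.45 ± 0.06 (adjusted p = 0.00012), and the vesicle glycoprotein gene Sv2b fell by 0.53. In the adjusted fit, they stood at −0.20 and −0.32. Snap25 averaged 2620 ± 263 CPM in the high libraries and 2898 ± 324 CPM in the low ones, at −0.15 ± 0.04 (adjusted p = 0.0065), and this small difference turned to 0.10 when GC content and length were adjusted for.

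**Figure D3:**
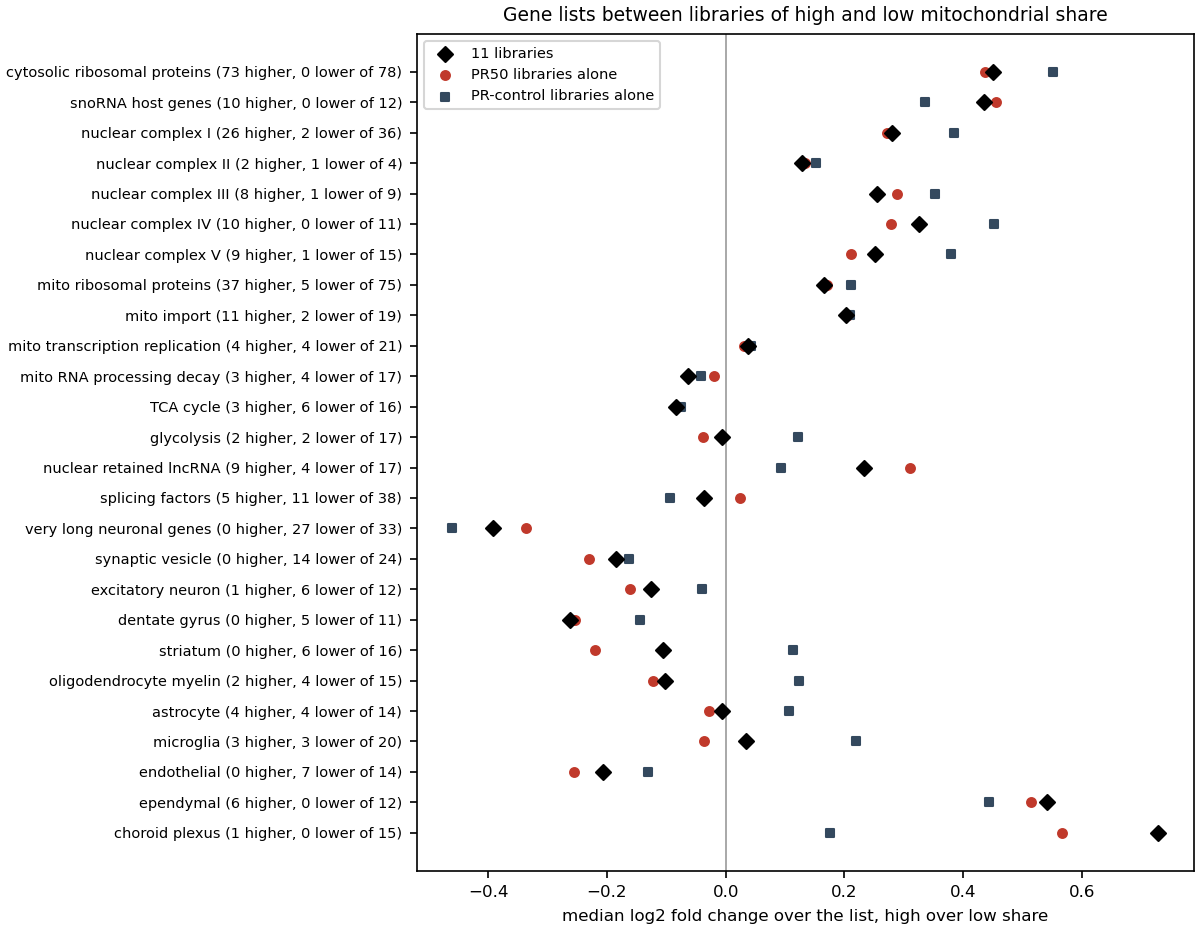
Median log2 fold change, high over low share, over the tested members of each gene list, with the number of members called higher and lower beside its name. Diamonds are all 11 libraries, circles PR50 libraries alone and squares PR-control libraries alone, the last fitted without a sex term. Cytosolic ribosomal proteins lie at 0.45 and very long neuronal genes at −0.39 for all 11 libraries.

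The 12 largest falls, among called genes with a mean log2 CPM of at least 1, included several receptor and channel genes of neurons. Gabrb2, a subunit of the GABA-A receptor, had 17.1, 15.9 and 10.97 CPM in the high PR50 libraries and 27.4 and 18.6 CPM in the high PR-control libraries. Among low libraries it had 51.9, 25.4, 78.8 and 66.3 CPM for PR50 and 129 and 125 CPM for PR-control. Low PR50 library 3 overlapped the high side and all other low libraries were above it, for a log2 fold change of −2.07 ± 0.24 (adjusted p = 6.2e-05). Chrna7, the alpha 7 subunit of the nicotinic acetylcholine receptor, fell by 1.59 with no overlap, and the potassium channel gene Kcna3 and the synaptotagmin Syt10 fell by 1.69 and 1.62. Plcxd3, Lancl3, Lnpep, Klhl11 and Gpr165 fell by 1.56 to 2.32. Pcdhac2 and Pcdhga2 fell by 1.72 and 1.60. Protocadherin genes of a cluster share their last exons, and ambiguous reads are counted apart from gene reads. These levels may therefore rest on part of each transcript. Igkv17-127, an immunoglobulin segment, had the largest value, −3.85 ± 1.45 (adjusted p = 0.048), which rests on 24.1 CPM in PR-control library 2 alone, with at most 0.769 CPM in each of the other 10 libraries, and lost its call without any of 5 further libraries.

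The 12 largest rises were of genes that averaged below 10 CPM on both sides, other than Mid1 and Col24a1. Muc6, a mucin, had 3.26, 3.96 and 2.64 CPM in the high PR50 libraries and 2.94 and 3.73 CPM in the high PR-control libraries. On the low side it had 1.62, 1.04, 1.24 and 0.990 CPM for PR50 and 1.01 and 1.17 CPM for PR-control. The sides did not overlap, and the log2 fold change was 1.49 ± 0.17 (adjusted p = 6.7e-05). The collagen genes Col7a1, Col6a4 and Col24a1 rose by 1.28, 1.19 and 1.12, and the collagen-binding integrin Itga10 by 1.01. Col24a1 was at 1.47 in PR50 libraries alone and at 0.36 in PR-control libraries alone, where it was not called (adjusted p = 0.37). Dnase1l2, Myh6, Capn6, Tnfrsf25 and Plekhg4 rose by 1.01 to 1.17. Lbp rose by 1.01 but was no longer called without PR50 library 1. Mid1 rose by 1.13, with 3.66 CPM in low PR50 library 3 and 4.84 CPM in low PR-control library 2 against 18.8 to 44.8 CPM in all other libraries, and lost its call without any of 4 high libraries.

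RNAs that stay in the nucleus were mostly higher in the high libraries. Of 17 such long noncoding RNAs 9 were higher and 4 lower, with a median of 0.23. Malat1, of nuclear speckles, averaged 2284 ± 447 CPM in the high libraries and 1411 ± 234 CPM in the low ones, a log2 fold change of 0.71 ± 0.13 without overlap (adjusted p = 0.0007). Neat1, the scaffold of paraspeckles, rose by 0.77, while Tug1 fell by 0.34 but stood at −0.05 and was not called (adjusted p = 0.48) when adjusted for GC and length. Meg3 rose by 0.23 but was no longer called without PR50 library 1, at 0.19. Of 38 splicing factors 5 were higher and 11 lower, among the higher ones the kinases Clk1 and Clk4 at 0.47 and 0.48, and among the lower ones Hnrnpk and Luc7l3 at −0.29 and −0.34. That balance depended on the fit. With GC content and length adjusted for together, 24 were higher and 1 lower, and the median moved to 0.15. Neither Hnrnpk nor Luc7l3 was called there.

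Markers of cell types moved with the split less uniformly than the ribosomal and long neuronal genes. Excitatory neuron markers had 6 of 12 lower and 1 higher, dentate gyrus markers 5 of 11 lower and none higher, and striatal markers 6 of 16 lower and none higher, with medians of −0.13, −0.26 and −0.11. Adjusted for GC and length, none was higher in any of these lists, 7, 3 and 9 were lower, and the medians were −0.27, −0.15 and −0.22. The striatal median was −0.22 in PR50 libraries alone and 0.11 in PR-control libraries alone. Gad2, a GABA-making enzyme of interneurons, averaged 186 ± 20.6 CPM in the high libraries and 324 ± 34.4 CPM in the low ones, at −0.76 ± 0.08 (adjusted p = 5e-05), while the interneuron peptides Cck and Sst were higher at 0.41 and 0.31. With GC and length adjusted for, Cck stood at 0.10 (adjusted p = 0.25) and Sst at 0.0033 (adjusted p = 0.97), neither of them called. Endothelial markers had 7 of 14 lower and none higher, among them the transporter gene Abcb1a and Pecam1 at −0.53 and −0.47. In the adjusted fit, 3 of the 14 were lower and none higher.

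Glial markers went both ways. Of 15 oligodendrocyte markers 2 were higher and 4 lower, but 5 were higher and 3 lower when adjusted for GC and length. The 2 higher ones were Mbp and Mobp, myelin protein genes whose messenger RNAs are carried out into the myelin sheath. Mbp had 3575, 3747 and 4412 CPM in the high PR50 libraries and 3815 and 4791 CPM in the high PR-control libraries. In the low libraries it had 2362, 2836, 2413 and 2724 CPM for PR50 and 2452 and 2326 CPM for PR-control. No library overlapped with the other side, and the log2 fold change was 0.66 ± 0.08 (adjusted p = 8.1e-05). The lipid synthesis genes Ugt8a and Fa2h were lower at −0.41 and −0.35. Adjusted for GC and length, Ugt8a stood at −0.19 and was not called (adjusted p = 0.066). Fa2h was at −0.49 in PR50 libraries alone and at −0.05 in PR-control libraries alone, where it was not called (adjusted p = 0.74). Astrocyte markers had 4 of 14 higher and 4 lower: Aldoc and S100b rose by 0.32 and 0.33, and Gja1 and Slc4a4 fell by 0.28 and 0.37. Adjusted for GC and length, 2 were higher and 1 lower, Slc4a4 stood at −0.15, and Gja1, at −0.03, was not called (adjusted p = 0.66). Gfap averaged 457 ± 149 CPM in the high libraries and 358 ± 125 CPM in the low ones, at 0.36 ± 0.07 (adjusted p = 0.0017). Of 22 markers of disease-associated microglia 5 were higher and none lower. Apoe led them at 0.44, or 0.20 adjusted for GC and length, whereas Clec7a averaged 2.78 ± 1.87 CPM in the high libraries and 2.79 ± 2.01 CPM in the low ones.

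Choroid plexus and ependymal cells line the ventricles, and small amounts of them can enter such a homogenate. Choroid plexus markers summed to 843, 155 and 205 CPM in the high PR50 libraries and 354 and 377 CPM in the high PR-control libraries, against 228, 206, 302 and 253 CPM in the low PR50 libraries and 295 and 373 CPM in the low PR-control libraries. The sides overlapped, 1 of 15 markers was called, Kcne2, which lost its call without any of 4 libraries and stood at 0.28 without PR50 library 1, and the list's median of 0.73 ranged from −0.27 to 1.04 when libraries were left out singly. Ttr, the transthyretin gene, had 534, 1.06 and 32.6 CPM in the high PR50 libraries and was not called, with a log2 fold change of 1.42 ± 0.75 (adjusted p = 0.15), although without PR50 library 4 it was, at 1.88 (adjusted p = 0.019). Ependymal markers had 6 of 12 higher and none lower, with a median of 0.54 that ranged from 0.30 to 0.71 when libraries were left out singly, and in PR50 libraries alone none was called. Without PR50 library 1, Cfap126 and Rsph1 of this list lost their calls. Rsph1 lost it as well without PR-control library 1, 2 or 3, or PR50 library 2, 5, 6 or 7. Adjusted for GC and length, 4 of the 12 were higher and none lower, and Rsph1, at 0.14, was not called (adjusted p = 0.36). With the choroid plexus level added to the model 7991 genes were called, and with the striatal level 7794. Both levels were drawn from the same counts, and PR50 library 1 stood far above the rest in the choroid plexus level. A part of tissue make-up in the calls was not tested.

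The direction of a gene's change went with its base composition and its untranslated length. When all genes were ranked by the GC content of their exons and divided into 5 bins of equal size, the median log2 fold change was −0.19, −0.10, −0.03, 0.08 and 0.17 from the most AT-rich to the most GC-rich bin. In the most AT-rich bin 6.98% of genes were higher and 37.1% lower, and in the most GC-rich bin 34.9% were higher and 5.34% lower. For the length of the 3′ untranslated region, the part of a messenger RNA after its stop codon, the medians ran from 0.19 in the bin with the shortest to −0.22 in the bin with the longest. Across genes the Spearman correlation with the log2 fold change was 0.35 for GC content (20212 genes) and −0.45 for the length of this region (15553 protein-coding genes), as a description, since genes share their libraries and are not replicates.

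The properties were also crossed, each in 3 bins. Among genes in the most AT-rich bin with 3′ untranslated regions in the longest bin, 1.85% were higher and 59.5% lower, with a median of −0.27. Among genes in the most GC-rich bin with regions in the shortest bin, 45.3% were higher and 2.77% lower, with a median of 0.24. In the GC-rich bin the median was 0.02 for the longest regions, and in the AT-rich bin it was −0.02 for the shortest. Ribosomal protein genes had a median GC content of 52.0% and a median 3′ untranslated length of 159 bases, and very long neuronal genes had 45.8% and 2669 bases. The median GC content was 49.5% over all genes tested, and the median length was 1153 bases over the protein-coding genes with such a region.

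In the fit adjusted for GC content and exonic length, 44 of the 202 called named genes were no longer called. That fit did not take in the 3′ untranslated length, whose correlation with the change was −0.45, against −0.29 for exonic length. There 72 of 78 ribosomal protein genes were higher and none lower, with a median of 0.32, and 20 of 33 very long neuronal genes were lower and none higher, with a median of −0.16. For complex I 19 of 36 were higher and 2 lower, with a median of 0.15. In the same fit Rbfox1 was at −0.84, Gabrb2 at −1.82 and Muc6 at 1.48. Not all genes held their values so closely: Erbb4 went from −0.91 to −0.59, and Ctnna2 from −0.34 to −0.21. Any further part of base composition, or of 3′ untranslated length, in the results was not tested.

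**Figure D4:**
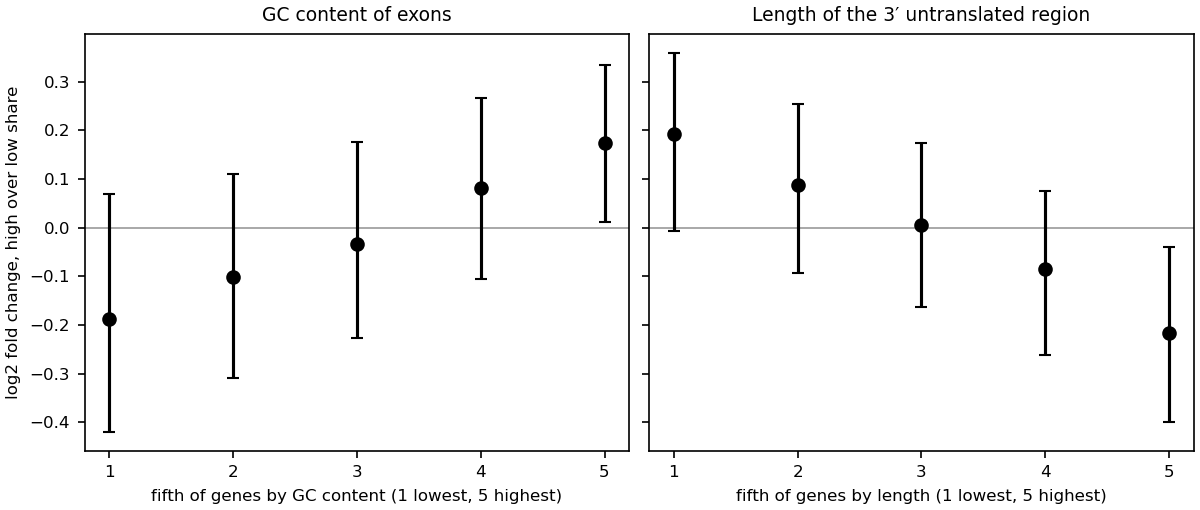
Median log2 fold change, high over low share, of genes in 5 bins by the GC content of their exons (left) and of protein-coding genes in 5 bins by the length of the 3′ untranslated region (right); whiskers span the lower to the upper quartile of genes. The medians climb with GC content from −0.19 to 0.17 and drop with length from 0.19 to −0.22.

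Reads on repeats moved with the split as well. Of 985 repeat subfamilies tested against the gene-based library size 206 were called, 20.9%, with 153 higher, 15.5%, and 53 lower, 5.38%. Of 140 LINE subfamilies, which are copies of non-LTR retrotransposons, 35 were higher and 2 lower. Of 578 LTR subfamilies, remnants of endogenous retroviruses, 91 were higher and 36 lower, close to the shares over all subfamilies. Taking the library size from the repeat reads gave 139 higher and 180 lower, so the balance of directions depends on that choice. Without PR50 library 6 the count fell to 88. Reads from repeats that lie inside transcripts of genes are part of these counts and were not separated.

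Kanga1, a DNA transposon of the TcMar-Tc2 family, had 48.3, 41.8 and 37.3 CPM in the high PR50 libraries and 67.7 and 49.2 CPM in the high PR-control libraries. Among low libraries it had 94.0, 69.5, 118 and 104 CPM for PR50 and 141 and 153 CPM for PR-control. The sides did not overlap, and the log2 fold change was −1.21 ± 0.12 (adjusted p = 8.6e-06). LTR81, RLTR45-int, MurERV4-int, ERVB4_2-I_MM-int and MamGyp-int fell by 0.48 to 0.84. RLTR18-int, an internal sequence of an ERVK retrovirus, averaged 1982 ± 295 CPM in the high libraries and 1303 ± 177 CPM in the low ones, at 0.63 ± 0.08 (adjusted p = 0.00015). MER52-int, L1ME3C, RodERV21-int, ORR1D2 and Lx2 rose by 0.47 to 0.97.

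Over whole repeat classes and read-assignment shares, 7 of 17 measures passed an exact two-sided permutation test within treatments, with p adjusted over the 17 and a smallest possible p of 0.00476. LINE reads averaged 54732 ± 3979 CPM in the high libraries and 47454 ± 2414 CPM in the low ones, a difference of 0.20 on the log2 scale (exact p = 0.00476, adjusted p = 0.027). Reads of tRNA repeats differed by 0.17 and unmapped reads by 0.43 percentage points at the same p. Unmapped reads made up 3.69 ± 0.330% of all reads in the high libraries and 3.23 ± 0.151% in the low ones. The classes named RNA, srpRNA (the RNA of the signal recognition particle) and Other were higher too, by 0.50, 0.54 and 0.13. Satellite reads were lower, at 2498 ± 54.8 CPM in the high libraries and 2855 ± 222 CPM in the low ones, a difference of −0.19 (exact p = 0.0143, adjusted p = 0.0405). Nuclear ribosomal RNA repeats averaged 39.7 ± 5.46% of repeat reads in the high libraries and 38.5 ± 4.20% in the low ones (adjusted p = 0.907). None of the 17 passed when any 1 of 7 libraries was left out, where the smallest possible p was 0.00833 to 0.0111.

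The high-minus-low difference was then compared between treatments. No gene of 20240 was called for a difference of that effect between PR50 and PR-control libraries (0%, edgeR), while 941 had an unadjusted p under 0.05. Without the filter on low counts 119 genes were called, and without PR-control library 4 there were 11. With 2 PR-control libraries on each side, this count does not show that the effects are alike. The high-minus-low values within each treatment can be set side by side, though the PR-control fit held no sex term. Rbfox1 moved by −0.84 in PR50 libraries alone and −0.83 in PR-control libraries alone, and Gabrb2 by −1.89 and −2.43.

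With the split in the model, far more genes were called for PR50 over PR-control. PR50 differed from PR-control in 3409 of 20240 genes, 16.8%, with 1296 higher, 6.4%, and 2113 lower, 10.4%. Of these 3409, 2502 were also called between high and low, 73.4%, against 38.2% of all genes tested. For 2469 of them both changes had the same direction. The median PR50 difference ran from −0.10 in the most AT-rich of 5 bins to 0.10 in the most GC-rich. By 3′ untranslated length it ran from 0.12 in the shortest bin to −0.14 in the longest. Without the split, 8 of 19643 genes were called, 0.0407%, with 7 higher, 0.0356%, and 1 lower, 0.00509%, and all 8 were among the 3409. Beside the split, markers of disease-associated microglia had 13 of 22 higher in PR50 and none lower, with a median of 0.31, and striatal markers 11 of 16 higher and none lower, with a median of 0.44. Synaptic vesicle genes had 16 of 24 lower and none higher, with a median of −0.25, immediate early genes 13 of 22 lower with a median of −0.50, and glucocorticoid-responsive genes 12 of 16 lower with a median of −0.50. The medians without the split were 0.32, 0.46, −0.24, −0.51 and −0.48 for the same 5 lists, so the sizes of these differences moved little and the number of calls much. The split was drawn from the same counts, and the share as a continuous measure in its place gave 972 calls. Leaving out single libraries gave 937 calls without PR-control library 2 to 5498 calls without PR50 library 6. Ribosomal RNA made up 40.0% to 46.1% of repeat reads in PR-control libraries and 43.3% in PR50 library 6. In all other PR50 libraries it made up 34.4% to 36.1%. The treatments thus differed in read make-up too, and a part of this in the calls was not tested.

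**Figure D5:**
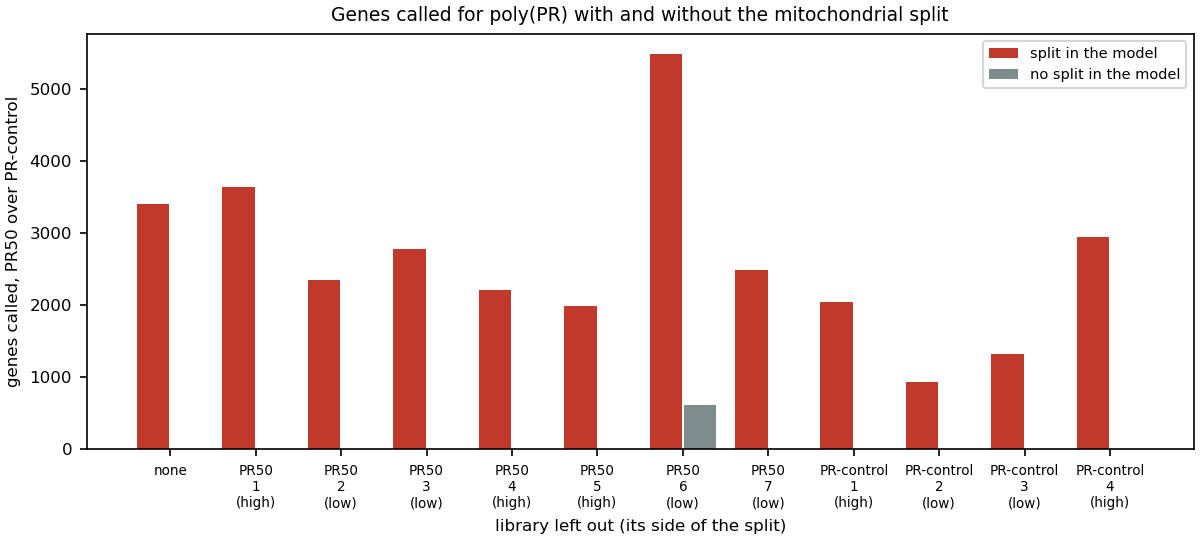
Genes called for PR50 over PR-control with the split in the model (red) and without it (grey), for all 11 libraries and with each library left out in turn. With the split the count runs from 937 to 5498, and without it from 0 to 618, the highest without PR50 library 6.

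The 8 libraries of the poly(GR) cohort, 4 of mice given AAV1-GFP-(GR)100 and 4 of their own AAV1-GFP controls, were not used by the rule. Their mitochondrial shares spanned only 4.15% to 4.76%. No gene of 19352 moved with the share there (0%, edgeR slope on log2 share with treatment and sex in the model), and 403 had an unadjusted p under 0.05. Of 7491 genes called between high and low in the poly(PR) cohort and tested here, 38.8% had the same direction, against 43.6% of all 19003 genes tested in both. Ribosomal protein genes had a median slope per doubling of the share of 0.25, with 59 of 78 above 0, against 0.93 in the poly(PR) cohort. Very long neuronal genes had a median slope of 0.45, against −0.71 in the poly(PR) cohort. The correlation of the slope with GC content across genes was −0.25, opposite in sign to the 0.35 above. The errors of these slopes were wide: that of Rbfox1 was 0.03 ± 0.48 (SE).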

How the data were processed

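RNA was sequenced from brain homogenates in 19 libraries, of which the 11 of the poly(PR) cohort form the main comparison. A kit for stranded total RNA and paired ends was used, per the labels' protocols, although polyA RNA is the labelled molecule. Trimmomatic 0.36 and STAR 2.5.2b are named in the submitters' processing notes, beside mm10 and mm9. Neither the annotation release nor the repeat counter is stated there. The deposited tables hold whole-number counts per gene (53801 IDs) and per repeat subfamily (1067), not normalized. Of the strand columns, the one that ignores strand was taken. For GR-control libraries 1, 3 and 4 and GR100 libraries 1 and 4 the gene table had a single count column, which was used. The poly(GR) cohort thus mixes table layouts. Summary lines such as unmapped reads were left out of totals and tests. Of all reads in the 11 libraries, 9.30% to 13.4% lay on no gene, 6.83% to 8.53% were ambiguous and 3.03% to 4.07% unmapped. Symbols, coordinates, GC content and transcript lengths came from GENCODE M21 on GRCm38, which holds 53706 of the IDs.

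Genes with symbols starting with mt- were removed from tests and library sizes, except in values given as CPM of all gene reads. The model held treatment, sex and high share as terms and was fitted in edgeR 4.0.16 (R 4.3.3, quasi-likelihood test, TMM factors, filterByExpr), with Benjamini-Hochberg adjustment at 0.05. The fit to PR-control libraries alone held no sex term. Repeat subfamilies used the gene-based library size. DESeq2 1.42.0 was an alternative. The fits were tested on simulated counts. Library numbers follow accession order and pair nothing.

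The members, lists and tests were chosen with earlier results of these data known. Named genes were up to 12 called genes in each direction, taken by size of log2 fold change, the called genes of each list with the lowest adjusted p, at most 4 a list, plus some set by name; a few of them are not reported here. Changes given as ± are standard errors of the log2 fold change, and levels given as ± are SDs.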

Additional observations from a re-analysis of the deposited data

Results flagged for a closer look

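In 60 groups of library-level values, the highest or lowest library was compared with the rest of its group by Dixon's ratio, which flags about 1 group in 20 by chance. PR50 library 5 had 40770203 gene reads, against 26934239 to 29454409 in the other 4 high libraries. PR50 library 4 had 13.4% of reads on no gene, the highest both of the PR50 and of the high libraries, of which the next had 11.1%. PR-control library 2 had 9.97% of reads on no gene, below 10.9% to 11.1% in the other 3 PR-control libraries. PR50 library 6 had 8.32% ambiguous reads, against at most 7.30% in the other 6 PR50 libraries. Of its repeat reads 43.3% were on ribosomal RNA, against at most 36.1%. Both values lay within those of the PR-control libraries, which had 7.63% to 8.53% ambiguous reads and 40.0% to 46.1% on ribosomal RNA. Low PR50 library 3 had the highest summed level of nuclear complex I genes among the low libraries, 3434 CPM against at most 2872 CPM, and of nuclear complex IV genes, 2850 CPM against at most 2416 CPM. PR50 library 1 had 843 CPM of choroid plexus markers, against at most 302 CPM in the other 6 PR50 libraries. What lies behind these values was not tested.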

How the results depend on the processing

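The 7736 genes called between high and low became 4660 in PR50 libraries alone and 1974 for a change beyond 1.2-fold, and ran from 6117 to 8628 without single libraries. The 12 other alternatives for this count gave 6425 to 8640. No gene was called for a difference of the effect between treatments, but 119 were without the filter on low counts, and 0 to 11 without single libraries. The 3409 genes called for poly(PR) with the split became 8 without it and 972 with the share as a continuous term, and 937 to 5498 without single libraries. No gene was called in the poly(GR) cohort under any of its alternatives. The 206 repeat subfamilies became 319 with the library size from repeat reads and 88 to 231 without single libraries. The 7 repeat classes and shares became 3 when labels were permuted across treatments, and 0 to 10 without single libraries, where at most 120 relabellings within treatments exist. Adjusting for GC content and exonic length, chosen after seeing the data, ended the call of 44 of 202 named genes. It turned the sign of 6 of these: Snap25 to 0.096, Foxp2 to 0.018, Etv1 to 0.016, Vcan to 0.084, Rorb to 0.094 and Tfam to 0.033. Of 202 called named genes 172 kept the call without each single library. No paired analysis was possible because replicate numbers were given in accession order. Depth limits the named genes at a few CPM, such as Muc6 and Kcna3.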
